A study of Homo sapiens with 6 samples.

Results

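SOX genes encode transcription factors that bind DNA through a high-mobility-group box, a domain shared with the testis-determining factor SRY, and bend the helix at short A and T rich sites. The family is divided into lettered groups by the similarity of that box. SOX2 belongs to group B1, which maintains pluripotent and neural progenitor cells, SOX4, SOX11 and SOX12 to group C, which acts in embryonic progenitors and differentiating neurons, and SOX5 and SOX6 to group D, which lacks a known activation domain and works beside SOX9. SOX9, of group E, drives cartilage, and in the heart it is known from the valve mesenchyme. SOX7, SOX17 and SOX18 form group F, known for endothelial cells and, in the case of SOX17, definitive endoderm.

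These 10 genes were taken by symbol from the 35793 genes of a table of normalized counts. These are whole numbers, called reads here, divided by 1 factor per library. They were selected on their normalized counts in both genotypes, which were known beforehand, so their difference between genotypes is given as a description, with no test. RNA was measured in cardiomyocytes on day 15 of differentiation from WTC11, an established human line of induced pluripotent stem cells. The wild-type cells were unedited WTC11. The knockout cells came from a WTC11 derivative with a homozygous STK25 knockout made with CRISPR/Cas9, and the labels name 1 such line, so the edit and any other difference between the lines cannot be told apart. No other treatment was given. Each genotype had 3 libraries, described as biological replicates.

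The libraries held from 22443904 to 53224112 reads assigned to genes. The kinase gene STK25, which checks the labels, had 8874, 6774 and 8710 normalized counts in wild-type replicates 1, 2 and 3 and 3906, 3434 and 3820 in knockout replicates 1, 2 and 3. Wild-type replicate 2 and knockout replicate 1 stood apart from the other libraries in the same way, with a correlation of 0.448 between their deviations from their genotype means across 15536 genes, which are not independent replicates. The cardiomyocyte label was met by the sarcomere genes TNNT2, from 206999 to 359162 normalized counts, and ACTN2, with 50467, 30452 and 64644 in the wild type and 67930, 135452 and 121031 in the knockout. Of 10 cardiomyocyte genes 5 had a log2 fold change above 0 and 5 below, with a median of 0.08, and 3 were called lower in the knockout: NKX2-5, a cardiac homeobox factor, NPPA, a natriuretic peptide gene, and PLN, a calcium pump regulator, with log2 fold changes of -1.71, -2.38 and -0.76. The limma adjusted p-values were 0.00135, 0.00463 and 0.0459, and PLN lost its call without any library but knockout replicate 1 (up to 0.176) and with no filter or equal upper quartiles. MYH6, an atrial myosin gene, was below the wild type in every knockout library (log2 change -1.14; adjusted p = 0.0531 in limma). ACTN2, TTN and TNNI3, all sarcomere genes, were above it in every knockout library and did not pass the test, at log2 changes of 1.16, 0.66 and 0.86 and adjusted p-values in limma of 0.0888, 0.124 and 0.0879. The summed level of the list was 802263 to 831026 in the wild type and 678532 to 766659 in the knockout, an order that NPPA set. Without NPPA it was 579796 to 653447 and 653005 to 727264, so the knockout was the higher side and the ranges met. In bulk RNA, fewer cells of a type and less RNA per cell cannot be told apart.

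Promoters of 3 genes are shown because the largest differences between genotypes concern SOX2 and its group B1 relative SOX3, and because SOX12 is one of the most abundant members. Each is 300 bases from RefSeq on GRCh38.p14, from 250 before to 50 after the transcript start, written 5′ to 3′ on the gene's strand. Capitals mark CCAAT or its complement ATTGG, the motif of a common promoter element bound by NF-Y. The SOX2 window is chr3:181711675-181711974 on the plus strand, the SOX3 window chrX:140505020-140505319 on the minus strand and the SOX12 window chr20:325302-325601 on the plus strand.
SOX2: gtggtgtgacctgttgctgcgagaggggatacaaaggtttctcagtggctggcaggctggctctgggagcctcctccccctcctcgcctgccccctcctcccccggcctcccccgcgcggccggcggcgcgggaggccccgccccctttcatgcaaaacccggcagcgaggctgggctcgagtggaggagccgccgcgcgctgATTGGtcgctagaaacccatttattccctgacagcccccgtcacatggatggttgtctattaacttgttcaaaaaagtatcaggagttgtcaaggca
SOX3: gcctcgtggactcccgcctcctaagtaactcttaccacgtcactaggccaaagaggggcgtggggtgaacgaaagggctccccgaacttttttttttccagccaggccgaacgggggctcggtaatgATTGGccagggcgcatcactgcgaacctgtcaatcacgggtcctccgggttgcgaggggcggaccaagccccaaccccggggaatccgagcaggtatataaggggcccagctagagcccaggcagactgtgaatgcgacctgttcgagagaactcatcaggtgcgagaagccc
SOX12: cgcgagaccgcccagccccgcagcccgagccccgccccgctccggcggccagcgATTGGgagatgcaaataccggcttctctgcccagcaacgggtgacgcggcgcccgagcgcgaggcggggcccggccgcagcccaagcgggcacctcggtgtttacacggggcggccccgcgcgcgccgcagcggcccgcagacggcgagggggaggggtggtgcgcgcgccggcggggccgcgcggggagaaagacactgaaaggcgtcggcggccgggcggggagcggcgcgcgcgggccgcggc
Each of the 3 windows held 1 match, which began 47 bases before the start in SOX2, 123 in SOX3 and 196 in SOX12. Among 35116 promoters of the same length, 34.6% held a match on either strand. The motif ACAAT or its complement ATTGT, part of the site that SOX proteins bind, was in 27.4% of those promoters and in none of these 3 windows. The windows not printed differed: SOX4 had 4 matches to CCAAT and none to ACAAT, SOX5 had 2 matches to ACAAT and none to CCAAT, and each of the 5 SOX6 windows had 1 or 2 matches to ACAAT and 0 to 2 to CCAAT. These 2 motifs were the only ones searched, they did not overlap in these windows, and a match is a description of the letters only. The SOX2 and SOX3 windows each held 20 CG pairs, a number reached by 41.2% of promoters. The SOX12 window held 54, which 0.464% of promoters reached.

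The level of the 10 genes was led by group C in both genotypes. On the scale of normalized counts per kb of annotated exon, which allows genes to be set side by side, SOX4 was at 362 ± 144 and SOX12 at 302 ± 116 in the wild type (SD, n = 3 per genotype). In the same scale and genotype SOX11 was at 24.0 ± 16.7, SOX9 at 7.04 ± 12, SOX6 at 4.56 ± 0.30, SOX5 at 3.79 ± 2.53 and SOX7 at 2.58 ± 1.64. SOX18, SOX2 and SOX17 closed the order at 0.82 ± 1.09, 0.76 ± 0.76 and 0. By the SD between libraries, SOX4 and SOX12 lay within their spread, as did neighbours in the order from SOX11 down to SOX2. The step from SOX12 to SOX11 was larger than the spread. The genes share their libraries: within each library of both genotypes SOX4 was above SOX12 per kb. SOX7 was likewise above SOX18 within each wild-type library.

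In the knockout the order per kb changed at SOX2. SOX4 was at 360 ± 144, SOX12 at 239 ± 97.0, SOX11 at 68.3 ± 42.0 and SOX2 at 55.0 ± 16.6 (SD, n = 3 per genotype). Below these came SOX9 at 9.76 ± 15.4, SOX6 at 8.99 ± 4.37, SOX7 at 5.62 ± 5.61, SOX17 at 3.55 ± 5.20, SOX5 at 2.61 ± 1.81 and SOX18 at 1.00 ± 1.73. SOX2 thus moved from the ninth place to the fourth, within the spread of SOX11 and above SOX9 in every knockout library. Group C held 96.9% ± 2.33 of the summed level per kb of the 10 genes in the wild type and 87.7% ± 3.11 in the knockout (SD, n = 3 per genotype). SOX2 alone held 0.094% ± 0.081 and 7.49% ± 1.35.

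**Figure D1:**
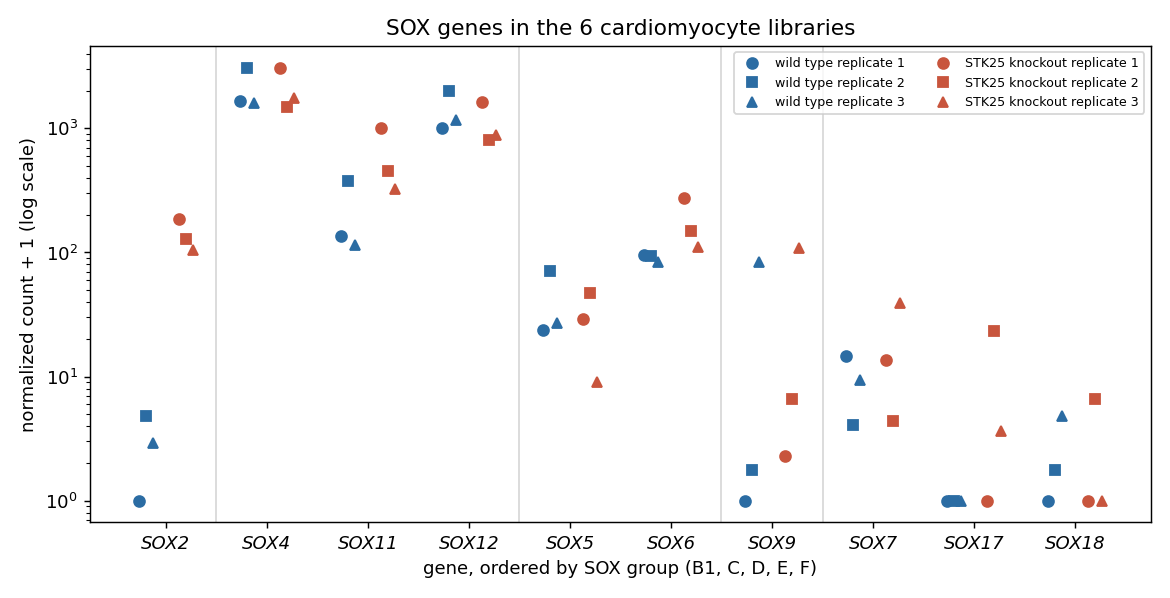
Normalized count plus 1 (log scale) of each of the 10 SOX genes in the 6 libraries, with wild type in blue, knockout in red and the replicate by marker shape. SOX2 separates the genotypes, SOX4, SOX11 and SOX12 are highest in wild-type replicate 2 and knockout replicate 1, and SOX9 is high in both libraries numbered 3.

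**Figure D2:**
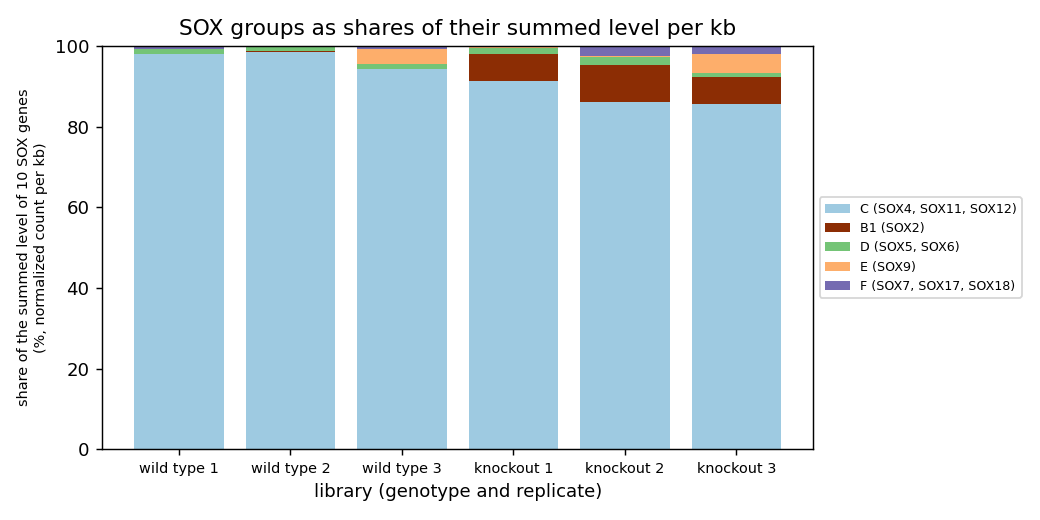
Share (%) of each SOX group in the summed level of the 10 genes, in normalized counts per kb, for each library. Group C fills most of every bar, and the SOX2 share is visible in the 3 knockout bars, at a mean of 7.49%.

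Group B1 gave the clearest difference. SOX2, a factor of pluripotent and neural progenitor cells, had 0, 3.81 and 1.91 normalized counts in wild-type replicates 1, 2 and 3 and 184, 127 and 103 in knockout replicates 1, 2 and 3. Every knockout library lay above every wild-type library. The means were 1.91 ± 1.90 and 138 ± 41.7 (SD, n = 3 per genotype), a ratio of 72.4. That ratio rests on 8 wild-type reads, with an exact 95% Poisson interval of 3.45 to 15.8 that covers counting error only, against 375 knockout reads. The log2 fold change was 5.81 on the log2(normalized count + 1) scale, and 7.18 or 3.61 with a pseudocount of 0.1 or 10. SOX2 lies within the noncoding gene SOX2-OT on the same strand in GENCODE. SOX2-OT is not among the genes listed, so the assignment of reads to SOX2 is uncertain.

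SOX3, the X-linked member of the same group and not among the 10, went the other way. It had 89.1, 103 and 68.9 normalized counts in wild-type replicates 1, 2 and 3 and 0 in each knockout library. A count of 0 allows up to 3.81, 3.34 and 2.67 normalized counts there, at 3 reads per library. SOX3 was at least 26.6-fold lower against that floor, with a log2 fold change of -6.44 and an SE of 0.65 (adjusted p = 0.00113 in limma, by Benjamini-Hochberg). With any 1 library left out the limma adjusted p stayed at or under 0.0134, so the call held in all 6 such fits, and in edgeR's quasi-likelihood test (adjusted p = 0.00362). SOX1, the remaining B1 gene, had 1 read in wild-type replicate 2 and 0 elsewhere.

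**Figure D3:**
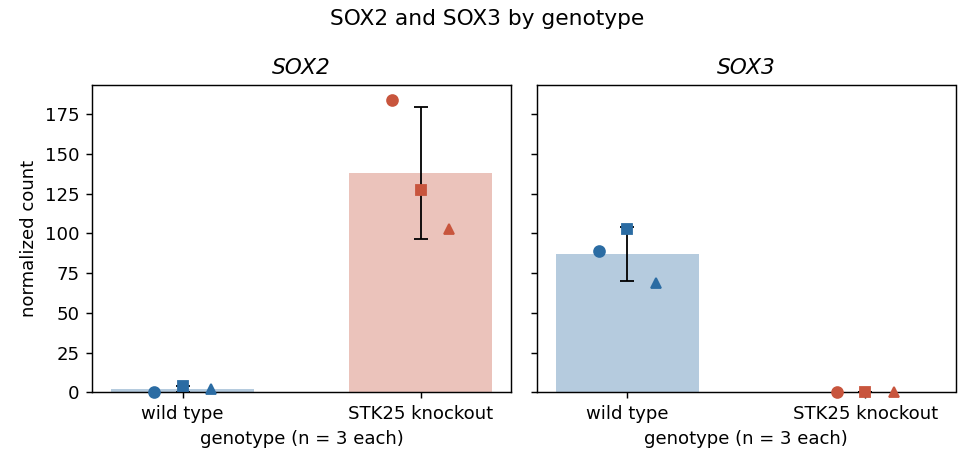
Normalized counts of SOX2 and SOX3 by genotype, with bars for the mean, error bars for the SD (n = 3, drawn no lower than 0) and markers for libraries. SOX2 has a mean of 138 in the knockout and 1.91 in the wild type, while SOX3 is at 0 in all 3 knockout libraries and between 68.9 and 103 in the wild type.

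Group C varied widely between libraries of a genotype, and the genotypes overlapped in all 3 genes. SOX4, which acts in progenitor survival and neuronal and heart outflow development, had 1654, 3092 and 1615 normalized counts in the wild type and 3067, 1491 and 1756 in the knockout. Wild-type replicate 2 and knockout replicate 1 were the high libraries, and the genotypes overlapped. Its means were 2120 ± 842 and 2105 ± 844 (SD, n = 3 per genotype), and the log2 fold change was -0.01. That value turned positive with 1 library left out: 0.29 without wild-type replicate 2, and 0.20 or 0.08 when knockout replicate 2 or 3 was left out.

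SOX12, the least studied member of group C, had 1015, 2015 and 1169 normalized counts in the wild type and 1623, 810 and 885 in the knockout. The same pair of libraries was high and the genotypes overlapped, with means of 1400 ± 538 and 1106 ± 449 (SD, n = 3 per genotype) and a log2 fold change of -0.35. Leaving out 1 library moved that value between -0.66 (without knockout replicate 1) and -0.05 (without wild-type replicate 2). SOX11, a factor of embryonic neural and mesenchymal progenitors, had 136, 377 and 114 normalized counts in the wild type and 1012, 454 and 322 in the knockout. Wild-type replicate 2 lay above knockout replicate 3, so the genotypes overlapped by 1 library. SOX11 means were 209 ± 146 and 596 ± 366 (SD, n = 3 per genotype), a ratio of 2.85 and a log2 fold change of 1.55. Leaving out 1 library moved that value between 1.08 (without knockout replicate 1) and 2.08 (without wild-type replicate 2).

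Over the 8 members with a mean of at least 10 normalized counts, 4 were highest in wild-type replicate 2 among the wild type and in knockout replicate 1 among the knockout: SOX2, SOX4, SOX11 and SOX12. Of all tested genes 29.6% had that order, and 30.7% had the reverse, with both libraries lowest. The part of these libraries' difference in the group C values was not tested.

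Group D split. SOX6, a repressor of slow fibre genes in skeletal muscle and a partner of SOX9 in cartilage, had 93.6, 92.2 and 82.9 normalized counts in the wild type and 273, 147 and 109 in the knockout. Every knockout library was above every wild-type library, with means of 89.6 ± 5.81 and 177 ± 85.9 (SD, n = 3 per genotype) and a log2 fold change of 0.87. Knockout replicate 1 was the highest, and without it the value was 0.50. SOX6 shares part of its annotated span with C11orf58 on the opposite strand, and the labels do not say whether strand was used. SOX5, its close relative, had 22.7, 70.1 and 26.2 normalized counts in the wild type and 28.0, 45.7 and 8.0 in the knockout. The genotypes overlapped, and the log2 fold change of -0.64 turned to 0.04 without knockout replicate 3.

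SOX9 was high in the libraries numbered 3 of both genotypes and near 0 in the others. It had 0, 0.76 and 82.3 normalized counts in wild-type replicates 1, 2 and 3 and 1.27, 5.57 and 108 in knockout replicates 1, 2 and 3. These were 129 reads in wild-type replicate 3 and 122 in knockout replicate 3, against at most 5 in any other library. The genotypes overlapped, and the log2 fold change of 1.16 became -0.04 when wild-type replicate 1 was dropped, -0.45 when knockout replicate 3 was dropped and 3.15 when wild-type replicate 3 was dropped. Of all tested genes 9.37% were highest in the libraries numbered 3 of both genotypes. With a margin of at least 10-fold over each of the other 4 libraries, on value + 1, SOX9 was the 1 gene of 15536, and 2 genes met 5-fold and 4 met 3-fold. The 3 others at 3-fold were ABCF2-H2BE1, AC099336.1 and TMPPE, and these margins were chosen after the values were seen. The labels do not say whether a replicate number marks a shared differentiation.

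Group F was near the limit of detection. SOX7, an early endothelial and endodermal factor that also restrains beta-catenin, had 13.6, 3.05 and 8.29 normalized counts in the wild type and 12.7, 3.34 and 38.2 in the knockout. Its genotypes overlapped, and the log2 fold change of 0.70 was -0.09 without knockout replicate 3, which held 43 of its 56 knockout reads. SOX7 overlaps PINX1 on the same strand in GENCODE, so its reads are uncertain. SOX17, a factor of definitive endoderm and arterial endothelium, had 0 reads in each wild-type library, which allows up to 4.53, 2.29 and 1.91 normalized counts in replicates 1, 2 and 3. In the knockout it had 0, 20 and 3 reads, or 0, 22.3 and 2.67 normalized counts, so knockout replicate 2 held nearly all of it. SOX18, a factor of vascular and lymphatic endothelium, had 0, 1 and 6 reads in the wild type and 0, 5 and 0 in the knockout. SOX17 and SOX18 had means under 10 and were not fitted.

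**Figure D4:**
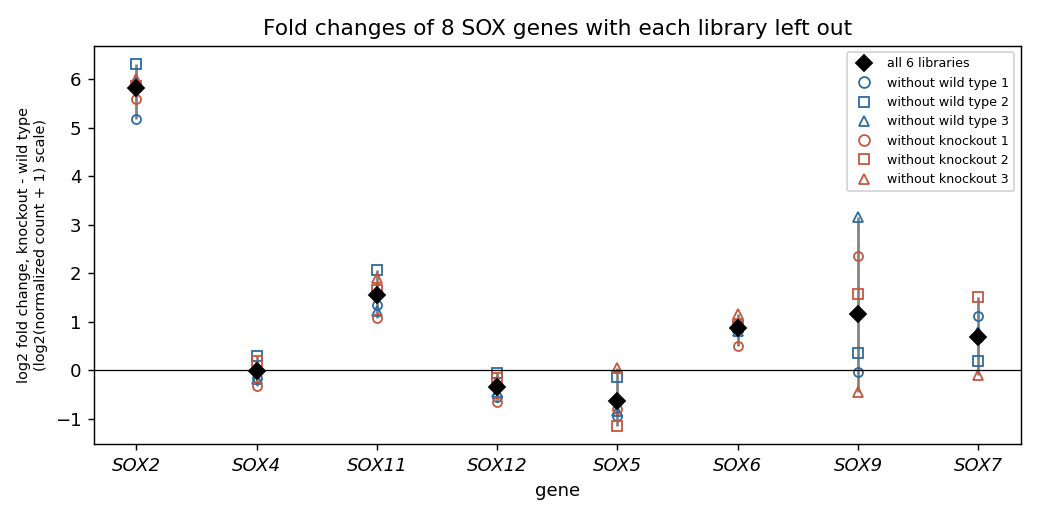
Log2 fold change (knockout minus wild type, log2(normalized count + 1) scale) of the 8 SOX genes fitted, with all 6 libraries (black diamonds) and with each library left out (open markers). SOX2, SOX6 and SOX11 stay above 0 and SOX12 below it, whereas SOX4, SOX5, SOX7 and SOX9 cross 0.

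Of the 8 fitted members 2, SOX2 and SOX6, had knockout libraries all above the wild type, and none had them all below. Over all 15536 tested genes these shares were 16.2% and 17.2%. Nothing is read from the counts, since the same contrast was known when the members were chosen.

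By Pearson's r of log2(normalized count + 1) over the 6 libraries, the non-SOX gene most like each fitted member other than SOX2 was named. For SOX4 it was SEM1, a proteasome subunit gene (r = 0.999 over 6 libraries), with 3290, 9247 and 3370 in the wild type and 8939, 2815 and 3745 in the knockout. For SOX6 it was SIK2, a salt-inducible kinase gene, with 118, 117 and 98.2 in the wild type and 421, 204 and 132 in the knockout. For SOX12 it was MYCBP, for SOX11 TMEM187, for SOX5 CHRNA10, for SOX9 SSH3 and for SOX7 CSNK1G2. With 6 libraries high values are common: 522 genes passed an r of 0.95 with SOX4 and 417 with SOX2, but 5 with SOX9 and 4 with SOX7.

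The rest of the SOX family was taken next, leaving SRY aside. Of 9 genes, 7 had a read and 4 had a mean of at least 10, of which 1, SOX3, had an adjusted p under 0.05 and was lower. In all tested genes 6.79% were called lower and 5.97% higher by limma. SOX13, of group D, had 230, 316 and 195 normalized counts in the wild type and 168, 168 and 151 in the knockout, without overlap, as in 33.4% of all tested genes (log2 change -0.57 with SE 0.29; adjusted p = 0.256 in limma). SOX15, of group G, had 13.6, 44.9 and 21.1 in the wild type and 108, 31.2 and 47.1 in the knockout (log2 change 1.17 with SE 0.65; adjusted p = 0.297 in limma). SOX8, which shares group E with SOX9, had 7.55, 25.9 and 19.1 in the wild type and 3.81, 1.11 and 9.78 in the knockout (log2 change -1.80 with SE 0.89; adjusted p = 0.239 in limma). SOX10, of group E, and SOX14, of group B2, had no read in any library, while SOX21 had 1 read and SOX30 between 0 and 9 reads per library. Noncoding genes at SOX loci were not analysed here. In GENCODE, SOX4, SOX5, SOX9 and SOX12 overlap noncoding genes on the opposite strand and SOX11 overlaps 1 on the same strand. None of these is among the genes listed, so the assignment of reads to these members is uncertain too.

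Cartilage matrix genes, many of them known targets of SOX9 with SOX5 and SOX6, were measured beside those factors. Of 17 listed genes 10 were tested, of which 5 rose, 1 fell and 4 did not pass the test. The median log2 fold change of these 10 was 1.38 against 0.0052 over all tested genes. COL11A2 rose from 684 ± 51.7 to 1819 ± 170 normalized counts (SD, n = 3 per genotype; log2 change 1.41 with SE 0.19; adjusted p = 0.00342 in limma). COL9A3 rose by 5.22 on the log2 scale, COL11A1 by 2.60, PAPSS2 by 1.67 and HAPLN1, a link protein of the matrix, by 1.35 (limma adjusted p = 0.0112, 0.0224, 0.0137 and 0.00918). COL9A1 fell from 1297 ± 249 to 477 ± 22.7 (SD, n = 3 per genotype; log2 change -1.42; adjusted p = 0.00668 in limma). The cartilage collagen COL2A1 was abundant in every library, at 42703, 26418 and 51541 in the wild type and 43528, 66346 and 60753 in the knockout (limma adjusted p = 0.325), also where SOX9 had 0 or 1 read. COL11A1 lost its call without wild-type replicate 1 or knockout replicates 2 or 3 (adjusted p up to 0.0953), PAPSS2 without wild-type replicate 1 or knockout replicate 3 (up to 0.0656) and HAPLN1 without knockout replicate 3 (0.0502). With equal totals the calls of HAPLN1 and PAPSS2 were also lost (adjusted p = 0.0517 and 0.0612). The other listed genes had means under 10 and were not fitted. Among them MATN1 was below the wild type in every knockout library (61 reads against 8) and MATN4 above it (3 against 24). ACAN, COMP, CNMD and CHAD had 15, 2, 30 and 4 reads in the wild type and 7, 2, 11 and 1 in the knockout. EPYC had no read.

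Neural genes were taken for SOX2 and group C. Of 8 tested neural progenitor genes 2 rose and 6 did not pass the test, with a median of 1.23. ZIC1, a neural and mesodermal zinc finger factor, rose from 13.3 ± 8.94 to 275 ± 95.7 normalized counts (SD, n = 3 per genotype; log2 change 4.41 with SE 0.59; adjusted p = 0.00340 in limma). PAX6, a factor of the eye and neural tube, rose from 4.22 ± 2.57 to 53.4 ± 37.4 (limma adjusted p = 0.0364), but it missed the threshold whichever library was left out (adjusted p up to 0.127), and also with no filter on low values. Of the 6 that did not pass, 3 had a log2 fold change below 0: FABP7, a fatty acid binding protein of radial glia, at -2.38, OTX2, a forebrain factor, at -0.71 and MSI1, an RNA-binding protein, at -0.13 (limma adjusted p = 0.191, 0.337 and 0.858). The others were above 0: LHX2 at 2.83, PROM1 at 1.82 and NES, the progenitor intermediate filament, at 0.64 (limma adjusted p = 0.136, 0.240 and 0.340). LHX2 was above the wild type in every knockout library.

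Of 8 tested neuronal genes 3 rose and 5 did not pass the test, with a median of 1.05. TUBB3, a neuronal tubulin and a known target of SOX4 and SOX11, had 54.4, 106 and 26.8 normalized counts in the wild type and 439, 591 and 317 in the knockout (log2 change 2.99 with SE 0.52; adjusted p = 0.00997 in limma). GAP43, of growth cones, rose by 2.15 (limma adjusted p = 0.00380) and INA, a neuronal filament, by 1.45 (limma adjusted p = 0.0295), although INA lost its call in all 6 fits that left out 1 library (adjusted p up to 0.110), and with no filter or equal totals. DCX, also a target of group C, went the other way from TUBB3 at a low level, with 7.55, 3.05 and 1.91 normalized counts in the wild type and 0, 0 and 0.89 in the knockout. These were 12 reads against 1, and with a mean under 10 DCX was not fitted. The summed level of the 11 neuronal genes was 2887 to 4298 in the wild type and 5948 to 7232 in the knockout. Its part in the SOX2 difference was not tested. NCAM1, which did not pass the test (log2 change 0.64, limma adjusted p = 0.146), held most of that sum in every library. Without NCAM1 the sums were 617 to 757 and 1697 to 2095.

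Pluripotency genes gave 1 rise among 8 tested genes and 7 that did not pass the test, with 4 log2 fold changes above 0, 4 below and a median of -0.02. TDGF1, a Nodal co-receptor, rose from 560 ± 71.6 to 3516 ± 782 normalized counts (SD, n = 3 per genotype; log2 change 2.63 with SE 0.24; adjusted p = 0.000656 in limma). POU5F1, the partner of SOX2 in stem cells, had at most 13.7 in the wild type and 47.0, 24.5 and 26.7 in the knockout (log2 change 2.09 with SE 0.85; adjusted p = 0.158 in limma). DNMT3B, a DNA methyltransferase, ZFP42, a zinc finger factor, and L1TD1, an RNA-binding protein, were below the wild type in every knockout library without passing the test. Their log2 fold changes were -3.20, -1.95 and -1.27 (limma adjusted p = 0.0835, 0.0884 and 0.104). FGF4 and UTF1, both known targets of that pair, had no read in any library. The list's summed level was 1568 to 2420 in the wild type and 3590 to 5087 in the knockout, its part in the SOX2 difference was not tested, and TDGF1 held most of the knockout sum. Without TDGF1 the sums overlapped, at 1081 to 1857 and 977 to 1122.

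Neural crest genes, taken for SOX9 and group E, split as well. Of 9 tested genes 2 rose, 3 fell and 4 did not pass the test, with a median of -1.03. ETS1 and SNAI2, factors of migrating crest and other mesenchyme, rose by 2.66 and 1.80 on the log2 scale (limma adjusted p = 0.00599 and 0.0105). NGFR, ERBB3 and S100B, receptors and a calcium-binding protein of crest and glia, had 835 ± 369, 259 ± 92.7 and 24.3 ± 11.6 normalized counts in the wild type and 107 ± 55.3, 47.1 ± 14.1 and 1.39 ± 0.35 in the knockout (SD, n = 3 per genotype). Their limma adjusted p-values were 0.00709, 0.0104 and 0.0261. SNAI2 lost its call without knockout replicate 3 (adjusted p = 0.0530) and ERBB3 without wild-type replicates 1 or 3 (up to 0.0629), and S100B kept it only without knockout replicate 1 (otherwise up to 0.102). The crest factors PAX7 and TFAP2B had no read.

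Endothelial genes, the setting of group F, differed widely in level. CDH5, the endothelial cadherin, had at most 1 read in any library, and PECAM1 spanned 21.1 to 69.3 normalized counts among wild-type libraries and 22.2 to 54.7 among knockout libraries (log2 fold change -0.03, limma adjusted p = 0.983). Of 9 tested endothelial genes 1 rose, 1 fell and 7 did not pass the test. Their log2 fold changes were above 0 in 7 and below in 2, with a median of 0.95. ESAM, a junction adhesion molecule, rose from 13.5 ± 7.12 to 712 ± 85.3 (SD, n = 3 per genotype; log2 change 5.78 with SE 0.49; adjusted p = 0.000496 in limma). NOS3, the endothelial nitric oxide synthase, fell by 2.09 (limma adjusted p = 0.0158), a call lost without wild-type replicates 1 or 3 or knockout replicate 3 (adjusted p up to 0.0771). KDR, a receptor also of cardiac progenitors, had a log2 fold change of 0.95 (limma adjusted p = 0.345). EMCN was above the wild type in every knockout library, at 22.3 ± 11.4 and 60.8 ± 28.3 normalized counts (SD, n = 3 per genotype). Its log2 fold change of 1.44 did not pass the test (limma adjusted p = 0.156). The list's summed level was 1507 to 1727 in the wild type and 2282 to 3103 in the knockout, and without ESAM the sums overlapped, at 1491 to 1709 and 1536 to 2349.

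Endoderm genes, the other setting of SOX17, gave 1 fall among 8 tested genes and 7 that did not pass, with 4 log2 fold changes above 0, 4 below and a median of 0.01. AFP, a fetal liver and yolk sac protein, had 122, 44.9 and 145 normalized counts in the wild type and 2.54, 0 and 3.55 in the knockout (log2 change -5.21 with SE 0.82; adjusted p = 0.00661 in limma). FOXA2, the defining endoderm factor, had no read in any library, also in knockout replicate 2, where SOX17 was highest. GSC, HHEX and FOXA3, factors of anterior and gut endoderm, were above the wild type in every knockout library, with log2 fold changes of 3.40, 1.79 and 1.17 that did not pass the test (limma adjusted p = 0.0726, 0.214 and 0.315). TTR and APOA1, secreted liver proteins, were below it in every knockout library, at -2.39 and -0.70 (limma adjusted p = 0.0996 and 0.136). The summed level of the 14 genes was 2878 to 4951 in the wild type and 2403 to 2600 in the knockout, and without APOA1 the sums overlapped, at 1368 to 2078 and 1239 to 1374.

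Fibroblast and valve genes, taken for SOX9 in mesenchyme, gave 4 rises and 2 falls among 13 tested genes, with a median of 0.66. TCF21, a factor of epicardium and fibroblasts, rose by 5.28 on the log2 scale, THY1 by 2.95, DCN by 2.82 and COL3A1 by 2.61 (limma adjusted p = 0.00952, 0.00275, 0.0276 and 0.0172). COL1A2 fell from 7514 ± 2839 to 240 ± 124 normalized counts (SD, n = 3 per genotype; limma adjusted p = 0.000616) and VCAN, a proteoglycan of the cardiac cushions, fell by 2.00 on the log2 scale (limma adjusted p = 0.000627). DCN lost its call without wild-type replicates 1 or 3 or knockout replicates 2 or 3 (adjusted p up to 0.112), and COL3A1 without wild-type replicate 1 or knockout replicates 2 or 3 (up to 0.0723). In all, 7 log2 fold changes were above 0 and 6 below. Among the genes that did not pass the test, PDGFRB and LUM were above the wild type in every knockout library and COL1A1 was below it. Their log2 fold changes were 2.24, 0.66 and -1.10 (limma adjusted p = 0.0658, 0.149 and 0.0789). Of all tested genes 33.4% had no overlap between genotypes. The list's summed level was 32111 to 49481 in the wild type and 16058 to 26517 in the knockout, and its part in the SOX9 values was not tested. Without VCAN the sums overlapped, at 16652 to 32074 and 11524 to 22113.

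Wnt target genes were included because SOX7, SOX9 and SOX17 can restrain beta-catenin. Of 9 tested genes 2 fell and 7 did not pass the test, with a median of -0.17. DKK1, a Wnt antagonist, fell from 1284 ± 373 to 408 ± 101 normalized counts (SD, n = 3 per genotype; log2 change -1.64 with SE 0.29; adjusted p = 0.0112 in limma). RNF43, which removes Wnt receptors, fell by 1.44 (limma adjusted p = 0.0412), a call kept only without knockout replicate 1 among the fits with 1 library left out (otherwise up to 0.153) and lost with no filter or quantile normalization. Among slow fibre genes, taken for SOX6, 1 of 9 rose and 1 fell, with 6 log2 fold changes above 0, 3 below and a median of 0.54. MYH7B rose by 0.94 (limma adjusted p = 0.0312). Its call was lost without wild-type replicates 1 or 3 or knockout replicate 3 (up to 0.139), and with equal totals or upper quartiles. MYL2, the ventricular light chain, fell from 14793 ± 901 to 176 ± 142 (SD, n = 3 per genotype, limma adjusted p = 0.000281). MYH7, TNNC1, ATP2A2 and TPM3 were above the wild type in every knockout library without passing the test. Their log2 fold changes were 1.42, 1.07, 0.81 and 0.49 (limma adjusted p = 0.0639, 0.126, 0.0851 and 0.0995). TNNT1 was below it in every knockout library, at -1.16 (limma adjusted p = 0.0912).

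**Figure D5:**
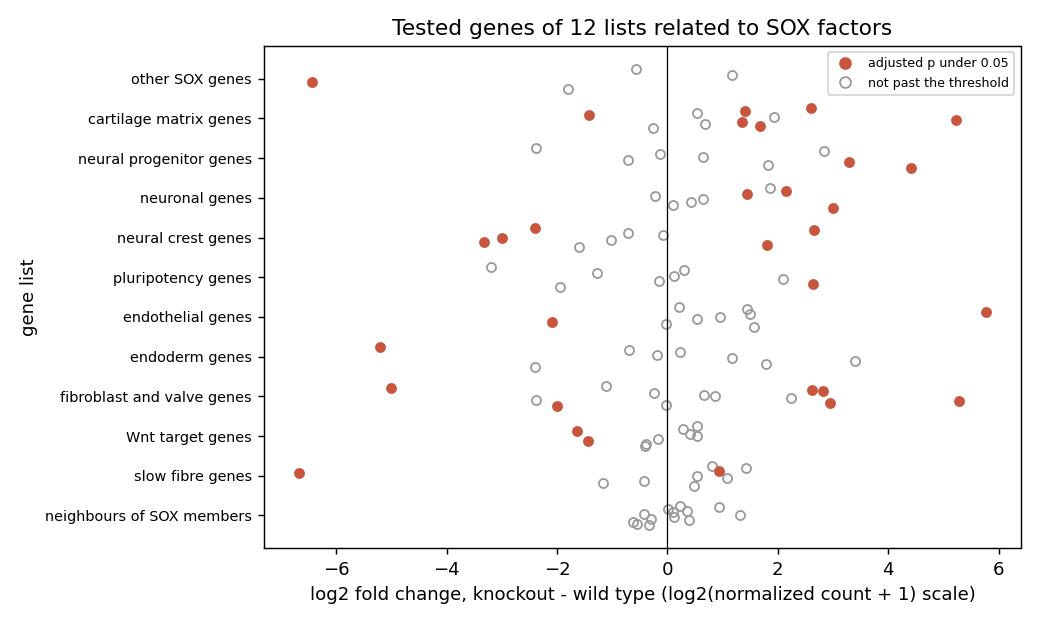
Log2 fold change (knockout minus wild type, log2(normalized count + 1) scale) of each tested gene in 12 lists tied to SOX factors, filled red where the limma adjusted p was under 0.05. Filled points lie on both sides of 0 in 5 of the lists, and the neighbours of the SOX members have none.

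The protein-coding genes nearest to each member on either side were compared between genotypes. As 6 of the 8 fitted members overlapped between genotypes, the count of called neighbours cannot show whether differences extend along the chromosome. Of 20 neighbours 13 were tested and 0 had a limma adjusted p under 0.05, with 1 at an unadjusted p under 0.05. By adjusted p, edgeR called 0 and DESeq2 1. Over all 15536 tested genes limma called 12.8%, and 4275 had an unadjusted p under 0.05. The median log2 fold change of the tested neighbours was 0.11. Around SOX2 (chromosome 3, 181711924 to 181714436 in GENCODE 29 on GRCh38) they were DNAJC19, 722 kb away, and ATP11B, 1079 kb away. DNAJC19 had 2607, 5722 and 2658 normalized counts in the wild type and 6052, 2462 and 3347 in the knockout, and ATP11B had 572, 254 and 740 against 361, 709 and 684. The genotypes overlapped in both genes. Whether the SOX2 difference extends into the sequence between them was not tested. BCAT1, a transaminase gene beside SOX5, was the 1 gene under the unadjusted threshold (log2 change 0.94 with SE 0.30; adjusted p = 0.0871 in limma).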

How the data were processed

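The deposited table holds 1 signal value per gene symbol and library, which the authors call normalized counts. The submitters' processing notes name GRCh38, bcl2fastq 2.19, kallisto 0.44.0 and DESeq2 1.28.1, with no role or order; annotation and use of strand are not given in the sources used here. All values (100%, tolerance 0.01 reads) were whole multiples of 1 step per column, so the deposited normalized counts were turned back to whole numbers, called reads. Whether these are rounded estimates is not stated, and error in assigning reads to genes is not covered. No molecular identifiers are named, so PCR copies are counted. Both the Poisson intervals and the 3-read floors reflect counting error alone. Every column was matched to a sample by its label.

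Genes with a mean of at least 10 were fitted with limma 3.58.1 (R 4.3.3, lmFit, eBayes with a trend) on log2(value + 1), using the 6 libraries without a covariate. Adjustment was by Benjamini-Hochberg across the 15536 tested genes, with a threshold of 0.05. P-values set the difference between genotypes against the spread between libraries of a genotype. They cover the libraries of 1 line per genotype only. Alternatives on the reads were edgeR 4.0.16 and DESeq2 1.42.0, and all fits were tested on simulated data, where limma and edgeR missed most changes of the smallest simulated size and DESeq2 recovered more of them with many more false calls. Other alternatives were pseudocounts of 0.1 and 10, a filter at a mean of 50 or none, equal totals or upper quartiles, the replicate number as a block and each library left out. Quantile normalization and leaving out wild-type replicate 2 with knockout replicate 1 were added after the values were seen. The members, lists and tests were chosen with earlier results of these data known.

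Named were the members, all list genes with an adjusted p under 0.05 (6 per direction and list at most), SOX genes with reads, STK25, fixed markers and the gene most like each member, save 1 that is not reported here. NES, FABP7, OTX2, MSI1, DCX, DNMT3B, ZFP42, L1TD1, FGF4, UTF1, GSC, HHEX, FOXA3, TTR and APOA1 were named after their values were seen. The same holds for TTN, TNNI3, LHX2, PROM1, MYH7, TNNC1, ATP2A2, TPM3, TNNT1, MATN1, MATN4, ACAN, COMP, CNMD, CHAD, neighbours and genes listed at 0. Levels per kb used the union of exons in GENCODE 29, an approximation to the transcripts present. Promoters of 5 of the 10 members were matched by symbol in a RefSeq table. Drawing used Python 3.11.15 and matplotlib 3.10.9.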

Additional observations from a re-analysis of the deposited data

How the results depend on the processing

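The count of called genes was 1982 and moved to 3210 with DESeq2, 798 with the replicate block and 4483 without wild-type replicate 2 and knockout replicate 1; with 1 library left out it ran from 796 to 2181. The deviations of same-numbered libraries from their genotype means correlated at -0.235, -0.400 and 0.169, and those of wild-type replicate 2 and knockout replicate 1 at 0.448. With 3 libraries per genotype these values are tied to each other. They cannot tell whether the replicate numbers pair the libraries. With the replicate block, called genes were 1 neural progenitor, 1 endothelial, 3 neural crest, 1 slow fibre and 1 Wnt target gene, and calls lost with it among named genes were HAPLN1, PAX6, INA, NOS3, SNAI2, S100B, DCN, MYH7B, RNF43 and PLN. With a mean of at least 50, SOX3 was not tested, leaving 0 called other SOX genes, and 1 neural progenitor gene was called. With no filter 1 neural progenitor and 1 Wnt target gene were called, with equal upper quartiles 1 slow fibre gene, and with quantile normalization 1 Wnt target gene. Equal totals, which shifted the median of all genes to -0.27, gave 2 pluripotency and 2 endoderm genes. DESeq2 gave 3 pluripotency, 2 endoderm, 7 slow fibre and 1 neighbour gene. Without wild-type replicate 2 and knockout replicate 1 together, 5 neural progenitor, 2 pluripotency, 3 endoderm, 8 slow fibre and 2 neighbour genes were called. With 1 library left out, calls ran from 3 to 7 for cartilage matrix, 1 to 2 for neural progenitor, 2 in each for neuronal, 1 to 2 for pluripotency, 1 to 2 for endothelial, 1 to 2 for endoderm, 3 to 6 for neural crest, 4 to 6 for fibroblast and valve, 1 to 5 for slow fibre and 1 to 2 for Wnt target genes.

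With 1 library left out, log2 fold changes ran from -0.32 to 0.29 for SOX4, -1.15 to 0.041 for SOX5, -0.085 to 1.5 for SOX7 and -0.45 to 3.15 for SOX9, and for SOX2 from 5.17 to 6.31. Depth limits SOX7, SOX17 and SOX18, which had at most 43 reads in any library.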
